A study of Homo sapiens with 10 samples.

Results

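The genes described here make cholesterol or control its synthesis, and were measured on Illumina beadchips in Meg01, a human megakaryoblastic leukaemia cell line, with and without knockdown of ATXN2. The 8 genes are HMGCS1, IDI1, FDPS, FDFT1, SQLE, TM7SF2, HSD17B7 and INSIG1. They were selected on their knockdown minus control differences in these same arrays, so those differences are given below as a description without a test. Every probe that the platform annotation assigns to them was used. This gave 9 probes for 7 of the 8 genes, all 9 above background on all 10 arrays, out of 20046 named genes of which 13902 had a probe above background on at least 2 arrays. FDFT1, which makes squalene, was not analysed here.

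All cells had received lentivirus (multiplicity of infection 10) and been sorted for GFP 48 hours later, so control cells had undergone transduction and sorting too. Serum was 10% for all samples. Control cells carried the hairpin shc002 and knockdown cells the hairpin sh95 against ATXN2, a protein that binds RNA and the poly(A)-binding protein. Lysates were spun through 7% to 46% sucrose, in which mRNAs with more ribosomes travel further. Fractions 1 to 8 were pooled as subpolysomal RNA, with 2 control and 2 knockdown arrays numbered P1 and P3, and fractions 9 to 17 as polysomal RNA, with 3 control and 3 knockdown arrays numbered P2, P4 and P5. The series text counts 8 polysomal fractions, whereas 9 to 17 make 9. The labels describe 3 independent experiments, without assigning the P numbers to them. Each P number stands for one control array and one knockdown array of the same pool, and no number recurs in the other pool. The model is 1 cell line with 1 hairpin per arm.

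Cholesterol is built from acetyl units through the mevalonate pathway, which runs from HMG-CoA to mevalonate, to isoprenoid units, to squalene and then through lanosterol to cholesterol. The genes of this pathway are known to be switched on together by SREBP transcription factors when sterols in the endoplasmic reticulum run low. SCAP escorts SREBP to the Golgi for cleavage, and INSIG proteins hold SCAP back when sterols are plentiful, while INSIG1 is itself a target of SREBP.

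As a check of the libraries, ATXN2 read below its control partner in each of the 5 pairs, with log2 knockdown minus control differences of -0.32, -0.50, -1.20, -2.09 and -1.04 for P1 to P5. Markers above background on at least 2 arrays were 9 of 13 megakaryocyte and platelet, 7 of 8 erythroid, 5 of 8 monocyte and granulocyte and 5 of 6 lymphoid genes. NFE2, GATA1, FLI1, ITGA2B, GP1BA, GP6, HBG1 and HBG2 were above it on all 10 arrays, as were CD14 and FCGR3B of the monocyte and granulocyte list. ITGB3 was above it on 4 arrays, VWF on 1 and PF4, a platelet alpha-granule chemokine, on 0. Monocyte and granulocyte markers averaged between log2 7.67 and 8.03 per array, and lymphoid markers between 7.56 and 7.66, close to background. Control array P2 stood apart from the others, with a highest deposited intensity of 140375 against 11164 to 38625. On the brightest of 3 probes for ACTB, the cytoskeletal actin, it read a deposited intensity of 468.1, against 4485.4 to 10680.5 on the other 9 arrays. All levels below are log2 intensities after quantile normalization, which gives each array the same distribution, so each difference is relative to the other probes. In bulk RNA of this kind, fewer cells expressing a gene and less of its RNA per cell cannot be told apart.

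Upstream sequences of 6 of the 8 genes were available in the RefSeq table of the GRCh38.p14 assembly. The stretch around the CCAAT box nearest to an annotated start is printed for each, because this box is bound by NF-Y, a factor known to act beside SREBP at sterol-responsive promoters. Each line gives 29 bases, 5′ to 3′ on the gene's own strand, with CCAAT or its reverse complement ATTGG in capitals.
HMGCS1 chr5:43313496-43313524, minus strand: ctaccggccgcgATTGGctgtgggagcca
IDI1 chr10:1048957-1048985, minus strand: ctggcgcgagcgATTGGctgcgcggcccg
FDPS chr1:155308803-155308831, plus strand: tcccgcgggcacATTGGgagttgtagtct
TM7SF2 chr11:65111786-65111814, plus strand: ccccgagcgccgATTGGctggtgtgctgg
HSD17B7 chr1:162790638-162790666, plus strand: tggcggactgagATTGGagggatcagctc
INSIG1 chr7:155297696-155297724, plus strand: cgccggcctcccATTGGttgcggccgcct

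The boxes begin 100 bases before the start in HMGCS1, 87 in IDI1, 51 in FDPS, 74 in TM7SF2, 52 in HSD17B7 and 170 in INSIG1, and all 6 are in the ATTGG orientation. In the 250 bases before the start, CCAAT was found on either strand upstream of 6 of 6 genes, counting any annotated start of a gene, against 37% of the 27305 genes in the table and 8 of 11 other cholesterol synthesis genes. The GC box GGGCGG, bound by Sp1, was also found in 6 of 6, against 46.2% of all genes and 9 of 11 others. The palindromic E-box CACGTG was found in 1 of 6, INSIG1, against 7.73% of all genes. The letters TCACNCCAC, taken as the core of a sterol regulatory element, were found in 0 of 6 and in 1.09% of all genes. These are matches of letters in a fixed window on both strands, and a window without a match leaves other spellings and other distances unexamined.

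HMGCS1, the cytosolic enzyme that condenses acetyl units into HMG-CoA, gave the widest range among the brighter probes of the 7 genes. Subpolysomal control RNA read 9.25 in P1 and 11.04 in P3, against 9.75 and 10.03 after knockdown. Polysomal control RNA read 11.74 in P2, 11.42 in P4 and 8.84 in P5, against 9.26, 10.62 and 8.96 after knockdown. The hairpin groups overlapped in both pools, and both P5 arrays lay below all others. Within pairs, knockdown minus control was 0.50 for P1, -2.48 for P2, -1.02 for P3, -0.79 for P4 and 0.12 for P5. The averaged difference of -0.65 (n = 5 against 5 arrays) was smaller than the SD of single pairs (1.16). Its SE was 0.70 in the fit of group means, which ignores the pairing, and 0.46 with the P number as a fixed block. Both SEs are given in this order for the genes below. Without control array P2, which stood apart, the polysomal difference went from -1.05 to -0.51.

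The isoprenoid step has 2 of the genes. IDI1, which converts isopentenyl to dimethylallyl diphosphate, followed HMGCS1 closely over the arrays (r 0.981 of within-pool deviations, 10 arrays sharing P numbers). Its control arrays read 9.81 and 10.95 in subpolysomal RNA (P1, P3) against 9.90 and 10.35 on the knockdown arrays. In polysomal RNA (P2, P4, P5) they read 11.30, 11.26 and 9.25 against 9.97, 10.68 and 9.68. The pair differences were 0.09, -1.33, -0.59, -0.58 and 0.43 for P1 to P5, so 3 of 5 pairs were lower. Their average over pools was -0.37 (SE 0.49, or 0.29 with the block). In polysomal RNA it was -0.49, and -0.14 without control array P2. FDPS, which joins these units into farnesyl diphosphate, moved over a narrower range. It read 8.84 and 9.43 on control and 9.03 and 9.06 on knockdown arrays in subpolysomal RNA. In polysomal RNA it read 9.44, 10.03 and 9.45 on control and 9.29, 9.78 and 9.53 on knockdown arrays. Its averaged difference between hairpins was -0.10 (SE 0.18, or 0.10 with the block), and no hairpin group separated from the other.

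SQLE, the epoxidase that makes the first oxygenated sterol precursor and a rate-limiting step of the pathway, is covered by 2 probes. On the brighter probe subpolysomal control RNA read 11.79 and 12.44 (P1, P3), and 11.66 and 12.03 after knockdown. Polysomal control RNA read 12.52, 13.71 and 12.16 (P2, P4, P5), and 12.59, 13.71 and 12.49 after knockdown. After quantile normalization the 2 arrays of P4 were higher than all others and lay together. In the deposited intensities control array P2 was the highest, with 11594.5 against 8574.5 and 9522.7 in P4. The hairpins differed by -0.07 (SE 0.38, or 0.07 with the block) on average. The second probe read 8.89 and 10.72 on control and 8.62 and 10.49 on knockdown arrays in subpolysomal RNA. In polysomal RNA it read 8.58, 11.80 and 10.02 on control and 8.77, 11.78 and 9.14 on knockdown arrays. The probes disagreed most in P5, where knockdown minus control was 0.33 on the brighter and -0.88 on the second.

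TM7SF2 and HSD17B7 act after lanosterol. TM7SF2, a sterol reductase, was lower on the knockdown array in 4 of 5 pairs. It read 8.16 and 8.63 on control and 7.77 and 8.40 on knockdown arrays in subpolysomal RNA, and 7.85, 8.46 and 8.40 on control and 7.71, 8.50 and 7.99 on knockdown arrays in polysomal RNA. The pair differences were -0.40, -0.14, -0.24, 0.04 and -0.40 for P1 to P5 and averaged -0.24 over the pools (SE 0.23, or 0.08 with the block). The hairpin groups overlapped in both pools, with P3 above P1 and P4 above P2 under either hairpin. HSD17B7, a ketosteroid reductase of the demethylation complex, read 10.42 and 10.03 on control and 10.86 and 9.92 on knockdown arrays in subpolysomal RNA. In polysomal RNA it read 10.09, 10.50 and 9.81 on control and 9.22, 10.41 and 9.72 on knockdown arrays. One pair, P2, differed by -0.87 and another, P1, by 0.44, and the other 3 lay between -0.11 and -0.09.

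INSIG1, the feedback protein, is also covered by 2 probes. On the brighter one subpolysomal arrays read 9.97 and 10.27 for control and 10.03 and 9.98 for knockdown cells. Polysomal arrays read 9.49, 10.23 and 8.89 for control (P2, P4, P5) and 9.13, 9.11 and 9.06 for knockdown cells. Control P4 was the single polysomal array within the subpolysomal range, and its pair gave the largest difference, -1.12. The averaged difference was -0.28 on this probe (SE 0.24, or 0.20 with the block). It was -0.09 (SE 0.16, or 0.09 with the block) on the dimmer one, which read between 7.67 and 8.32 on all arrays.

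**Figure D1:**
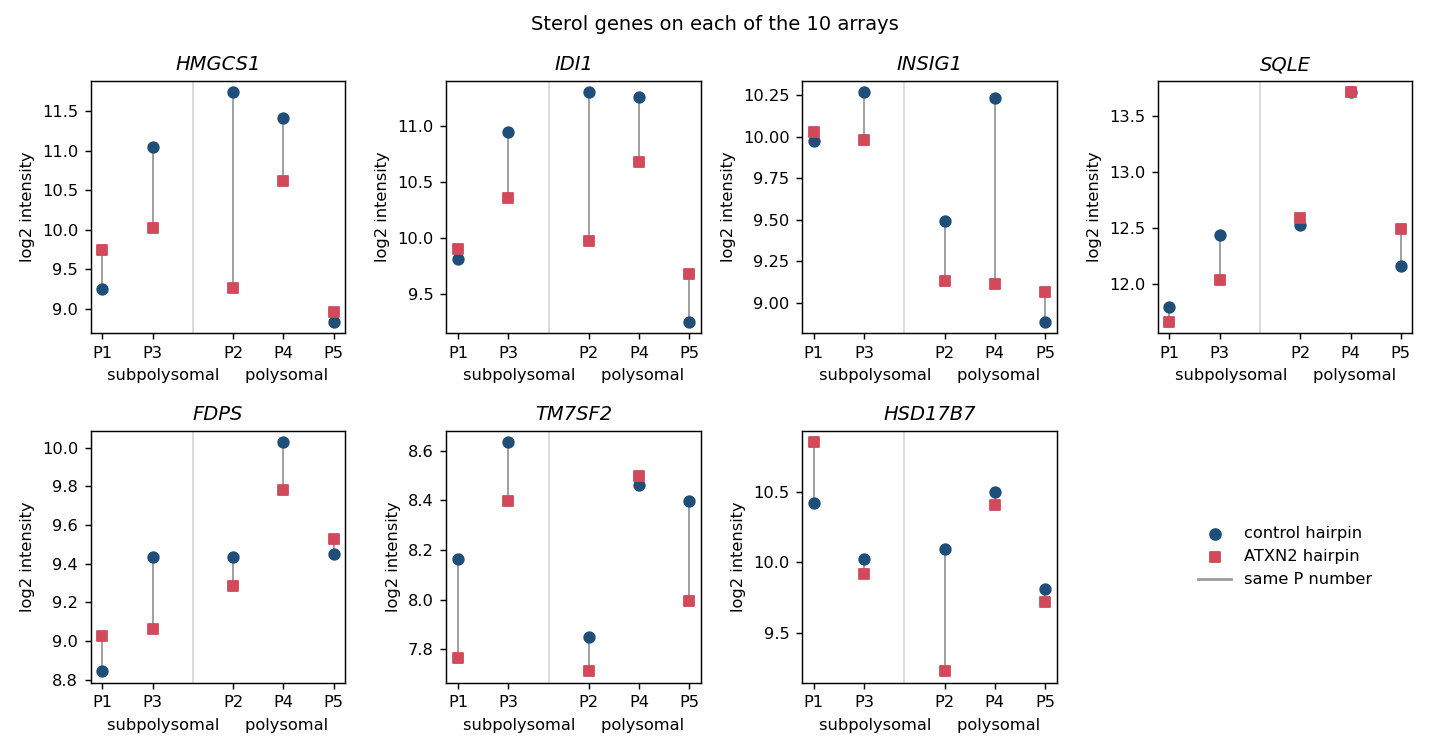
Log2 intensity (vertical axis) of the brighter probe of each of the 7 measured genes on each array, with control arrays as circles and ATXN2 knockdown arrays as squares, arranged by P number and RNA pool. A line joins the 2 arrays of a P number. The longest lines are those of P2 for HMGCS1 and IDI1 and of P4 for INSIG1. Both P4 arrays of SQLE lie above all others in these quantile-normalized values.

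Over the 7 genes the median difference between hairpins over pools was -0.24, with 7 of 7 genes lower on average, beside 46.5% of all measured genes lower and a median of 0.01. Since the genes were selected on these differences, their agreement in sign is fixed by the choice of genes. By pair the median of the 7 was 0.09 for P1, -0.36 for P2, -0.37 for P3, -0.25 for P4 and 0.12 for P5, so 3 of 5 P numbers carried the lower values. In pair P3 all 7 genes were lower and in P2 6 of 7, against 2 of 7 in each of P1 and P5. limma called 0% of 26904 probes between hairpins in polysomal RNA, in subpolysomal RNA and in their mean, with 428, 244 and 236 probes at an unadjusted p under 0.05. With the P number as a block limma again called 0 in each. In pools taken apart, the median of the 7 genes was -0.35 in polysomal RNA (6 of 7 lower) and -0.25 in subpolysomal RNA (6 of 7 lower). The polysomal median was -0.0695 without knockdown array P2, and the subpolysomal one turned to 0.0548 without control array P3. SQLE in polysomal RNA depended on scaling, with 0.13 after quantile normalization and -0.37 after median centring of each array.

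All 18 measured of 21 cholesterol synthesis genes were lower on average over both pools (median -0.20), beside 46.5% of all measured genes. The list itself includes 6 of the 7 measured members. Each gene is counted on its brightest probe, and several lay near 0 (LBR -0.05, CYP51A1 -0.05, LSS -0.05). Dimmer probes averaged 0.02 and -0.34 for MSMO1 and 0.03 and -0.01 for LBR. The 12 listed genes that are not members had pair medians of 0.0004, -0.14, -0.45, -0.23 and -0.01 for P1 to P5. Of these, MSMO1, a methyl sterol oxidase, gave -0.12, -0.96, -0.72, -1.15 and 0.74 for P1 to P5. MVD, which makes isopentenyl diphosphate, gave 0.19, -0.29, -0.98, -0.58 and -0.03, and read between 7.56 and 7.94, near background, on the arrays of P1, P2 and P5. DHCR7, which catalyses a last step to cholesterol, gave -0.13, -0.36, -0.75, -0.04 and -0.25. Of the 8 measured sterol control genes, INSIG1 among them, 4 were lower and 4 higher on average (median 0.0044). The averaged difference was 0.04 for SREBF1, -0.03 for SREBF2, and 0.15 for each of the SREBP proteases MBTPS1 and MBTPS2. INSIG2 averaged -0.06 and ran from -0.84 in P2 to 0.36 in P5, and SCAP ran from -0.64 to 0.64 in the same pairs. FASN, the fatty acid synthase, read 13.89 on control array P2, the array that stood apart, and 11.69 on its knockdown partner. Its differences in P1, P3, P4 and P5 were -0.05, -0.20, 0.02 and 0.62. SCD, a stearoyl-CoA desaturase, ran from -0.43 in P2 to 1.29 in P5. STARD4, a sterol carrier, read between 7.52 and 7.82, near background.

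**Figure D2:**
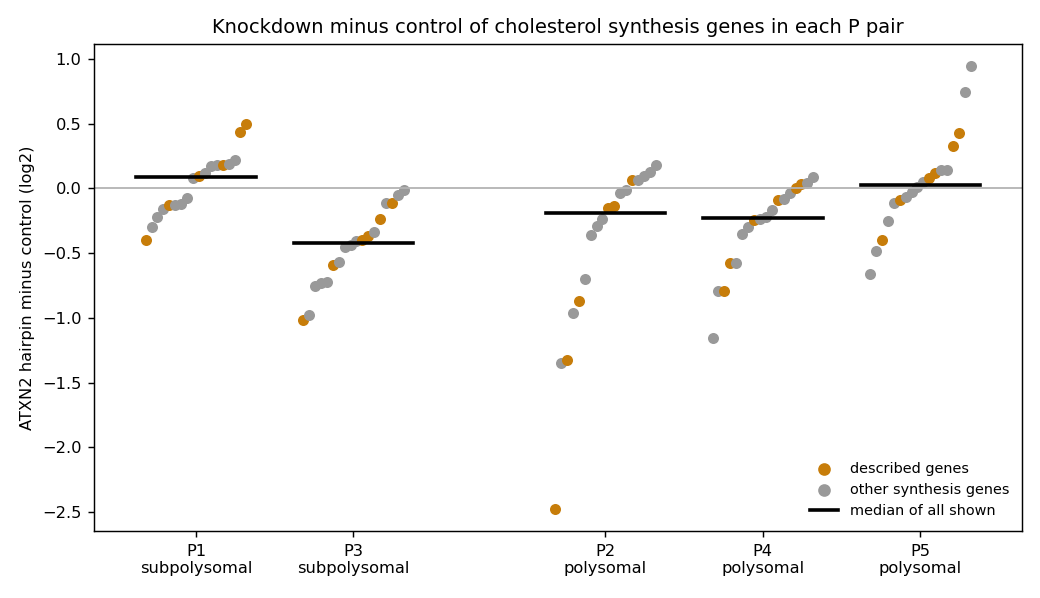
Knockdown minus control (log2, vertical axis) for each of the 18 measured cholesterol synthesis genes in each of the 5 P pairs, with the 6 described genes of the list in orange, the 12 others in grey, and a bar at the median of all 18. The bars lie below 0 in P2, P3 and P4 and slightly above 0 in P1 and P5.

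The 2 RNA pools were compared with a test, since polysomal minus subpolysomal is another contrast than the knockdown minus control differences on which the genes were chosen, although earlier results of these data were known. limma called 1.15% of 26904 probes between polysomal and subpolysomal RNA with hairpins averaged, 0.119% in control cells and 0.16% in knockdown cells, and 0 of 7 genes in each comparison. INSIG1 read lower in the polysomal pool without passing the test, by a difference of -0.74 (95% confidence interval -1.30 to -0.18, limma adjusted p = 0.285), with 5 of 6 polysomal arrays below all 4 subpolysomal ones. Its dimmer probe gave -0.12 (interval -0.49 to 0.25). FDPS gave 0.49 (interval 0.08 to 0.91, limma adjusted p = 0.348) and SQLE 0.88 (interval -0.03 to 1.79, limma adjusted p = 0.461). These intervals come from the fit of group means, which ignores the pairing. With the P number as a random block the SE of INSIG1 went from 0.24 to 0.34 (limma adjusted p = 0.769). That of FDPS went from 0.18 to 0.21 (limma adjusted p = 0.721). For HMGCS1 the interval ran from -1.52 to 1.77, so this design leaves large differences in either direction unresolved. Because no P number occurs in both pools, pool and P number cannot be told apart. Among the genes of the sterol and lipid lists, limma called GGPS1, which makes geranylgeranyl diphosphate from the same isoprenoid units, lower in the polysomal pool. It fell by 0.71 (SE 0.09, limma adjusted p = 0.022), with subpolysomal arrays between 10.06 and 10.20 and polysomal arrays between 9.20 and 9.69, which did not overlap. With the P number as a random block the limma adjusted p of GGPS1 was 0.129. Among the blood cell marker lists limma called HBG1, a fetal globin, higher in the polysomal pool by 0.34 (limma adjusted p = 0.0448, and 0.339 with the block). This rise was one of quantile-normalized values. The deposited intensities of HBG1 ran from 12855.2 to 29213.3 on subpolysomal arrays. They ran from 10463.9 to 14968.1 on polysomal arrays other than control array P2, which read 140374.7.

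**Figure D3:**
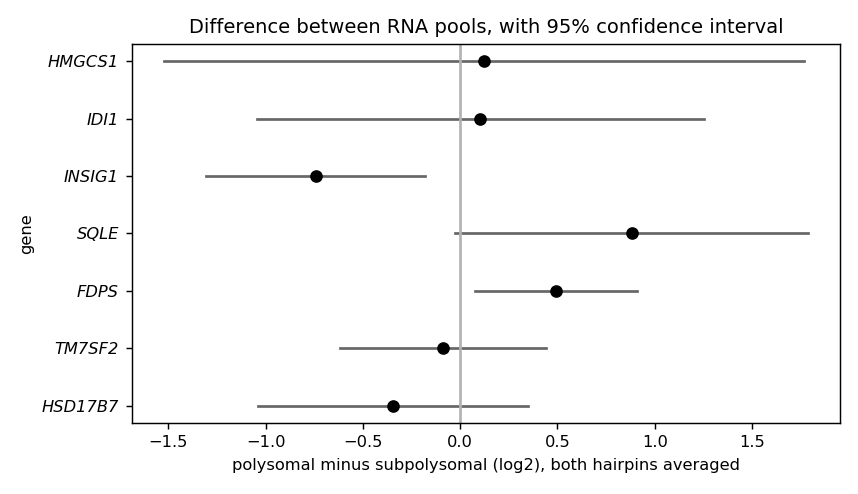
Polysomal minus subpolysomal difference (log2, horizontal axis) of each measured gene with both hairpins averaged, drawn as a point with its 95% confidence interval. The intervals come from the fit of group means, which ignores the pairing by P number. In that fit the interval of INSIG1 lies below 0, that of FDPS above 0, and the others include 0. None passed the threshold after adjustment over all probes.

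Some of these genes passed the test between P numbers of the same pool. SQLE and TM7SF2 were higher in P4 than in P2, TM7SF2 also in P3 than in P1, and SQLE also in P4 than in P5. Averaging a control and a knockdown array for each number leaves the hairpin difference out of the estimate, but not out of its SE. The SE rests on how far the knockdown minus control differences varied between numbers of a pool. Those are the differences on which the members were chosen, so which members were called is not independent of that choice. The comparison was added after the data were examined, with a limma fit of 5 P numbers and a hairpin effect in each pool. In it 2 arrays stand behind each number. The p-values thus set a difference between numbers against the variation of the hairpin difference. Since both arrays of a number may come from the same experiment, they say nothing about independent experiments. In subpolysomal RNA limma called 17.8% of measured genes between P3 and P1, with 7.08% of measured genes higher in P3. In polysomal RNA it called 22.4% between P4 and P2 (8.85% higher in P4), 2.21% between P4 and P5 (1.03% higher in P4) and 9.6% between P5 and P2 (3.96% higher in P5). Against these backgrounds limma called 1 of 7 members higher in P3 than P1, 2 in P4 than P2, 1 in P4 than P5 and 0 between P5 and P2, and called no member lower. The medians of the 7 were 0.51, 0.54, 0.70 and -0.23 in the same order, beside medians of all genes between -0.03 and -0.01.

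TM7SF2 was called in both pools. It was higher in P3 than P1 by 0.55 (SE 0.12, limma adjusted p = 0.0473) and in P4 than P2 by 0.70 (SE 0.12, limma adjusted p = 0.0256), each time on both arrays. The first of these calls was lost after median centring (adjusted p = 0.0695), without a filter on dim probes (0.0644), or without any 1 subpolysomal array or either P2 array, and the second without any 1 subpolysomal array, either P2 array or knockdown array P4. SQLE was higher in P4 than P2 by 1.15 (SE 0.11, limma adjusted p = 0.0101), or 2.22-fold, and than P5 by 1.39 (SE 0.11, limma adjusted p = 0.0314). Its second probe gave 1.85 for P3 over P1 (limma adjusted p = 0.02), 3.11 for P4 over P2 (0.00869) and 2.21 for P4 over P5 (0.0456). On the brighter probe the P4 to P2 difference shrank to 0.29 after median centring (adjusted p = 0.712), where the second probe kept 2.78 (adjusted p = 0.0153). The deposited intensities show the contrast of the probes: control array P2 read 11594.5 on the brighter and 381 on the second, and control array P4 8574.5 and 2808.1.

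HMGCS1 and IDI1 gave differences of like size that did not pass the test. Their hairpin differences varied more between pairs (SD 1.16 and 0.68) than those of SQLE (0.27 on the brighter probe). HMGCS1 was 2.12 higher in P4 than P5 (SE 0.71, limma adjusted p = 0.213) and 1.04 higher in P3 than P1 (SE 0.71, limma adjusted p = 0.445). IDI1 gave 1.50 and 0.80 for these comparisons (limma adjusted p = 0.172 and 0.341). For P4 over P2 their signs depended on scaling, since HMGCS1 gave 0.52 here and -0.16 after median centring, and IDI1 0.33 and -0.28. HSD17B7 gave the opposite sign in subpolysomal RNA, -0.67 for P3 over P1 (limma adjusted p = 0.167), and 0.80 for P4 over P2 (limma adjusted p = 0.102).

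The rest of the pathway was compared in the same way. Of the 12 other measured synthesis genes, limma called 8 higher in P3 than P1, 6 in P4 than P2, 2 in P4 than P5 and 2 in P5 than P2, and none lower. DHCR7 read 8.22 and 8.09 on the P1 arrays and 11.18 and 10.42 on the P3 arrays, 6.25-fold apart (limma adjusted p = 0.00657). In polysomal RNA it read 8.26 and 7.90 in P2, 10.85 and 10.81 in P4, and 9.10 and 8.85 in P5, so that both P4 arrays stood above the rest and P4 exceeded P2 6.73-fold (limma adjusted p = 0.00629). A second DHCR7 probe gave 2.70 and 3.08 for these 2 comparisons. LSS, which closes squalene epoxide into lanosterol, was called in all 4 comparisons, by 0.49 (limma adjusted p = 0.0121), 1.37 (0.00473), 0.81 (0.0299) and 0.56 (0.0192), although its other 2 probes lay near background and were not called. MVD was higher by 1.61 in P3 (limma adjusted p = 0.0349) and 1.51 in P4 over P2 (0.0371), with its P1 and P2 arrays near background. CYP51A1, the lanosterol demethylase, was higher by 0.92 (limma adjusted p = 0.0211) and 0.74 (0.0306). MSMO1 gave 1.53 and 1.88 on its brightest probe (limma adjusted p = 0.13 and 0.0723), and its other 2 probes were called in P3 over P1 (1.68 and 0.43, limma adjusted p = 0.035 and 0.0302) but not in P4 over P2. LBR, the other reductase at the TM7SF2 step, gave 0.10 and 0.35 (limma adjusted p = 0.575 and 0.0574).

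Of the 8 measured sterol control genes, limma called 0 in either direction between P3 and P1, 1 lower in P4 than P2, 0 between P4 and P5, and 1 higher and 1 lower in P5 than P2. INSIG2, the paralogue of INSIG1, read 10.46 and 9.62 in P2 and 8.08 and 8.09 in P4, lower in P4 by 1.96 (SE 0.29) with a limma adjusted p of 0.0201, and was also lower in P5 than P2 (-1.77, limma adjusted p = 0.0433). The gene called higher in P5 than P2 was NR1H3, the sterol receptor LXR-alpha (0.72, limma adjusted p = 0.0327), named after its values were seen. INSIG1 gave 0.12 for P3 over P1 and 0.36 for P4 over P2 (limma adjusted p = 0.876 and 0.534). SCAP, the escort protein, was 1.34 lower in P3 than P1 and 1.20 lower in P4 than P2 without passing the test (limma adjusted p = 0.0515 and 0.061). SREBF1 gave -0.53 and -0.29 and SREBF2 -0.15 and -0.02 in these comparisons, and none passed. FASN gave 0.21 and -0.81 (limma adjusted p = 0.904 and 0.525) and SCD 0.26 and 0.78 (0.804 and 0.338).

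Other measures moved with the P numbers too. The 9 measured of 13 megakaryocyte and platelet markers averaged 8.38 and 8.46 on the P1 arrays and 8.80 and 8.87 on the P3 arrays, and 8.48 to 8.62 in P2, 8.93 to 9.23 in P4 and 8.76 to 8.98 in P5. limma called 3 of them higher and 1 lower in P3 than P1, and 3 higher in P4 than P2, beside 7.08% and 8.85% of measured genes higher. Of the 5 measured monocyte and granulocyte markers it called 2 higher in P3 than P1 and 1 higher in P4 than P2. Of the 7 erythroid markers it called 0 in the first comparison and 1 lower in the second. Of the 5 lymphoid markers it called 0 in either. The mean deposited intensity was 386 and 453 on the P1 arrays and 510 and 556 on the P3 arrays. It was 721 on control array P2 and 371 to 397 on the other 5 polysomal arrays. Probes of ACTB moved with the numbers unequally. One of them averaged 8.19 in P1 and 12.58 in P3, and 7.95 in P2 and 12.57 in P4 (limma adjusted p = 0.011 and 0.0103), whereas the brightest averaged 12.69 in P1 and 12.55 in P3 (limma adjusted p = 0.968). ACTB was looked at after the data were examined. The part of these in the differences between P numbers was not tested. The calls depended on the number of arrays: without any 1 of the 4 subpolysomal arrays limma called 0 of 18 synthesis genes between P3 and P1, against 9 with all arrays. Between P4 and P2 it called 2 without knockdown array P4, 4 without control array P2 and 5 without control array P4 or any 1 subpolysomal array, against 8.

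**Figure D4:**
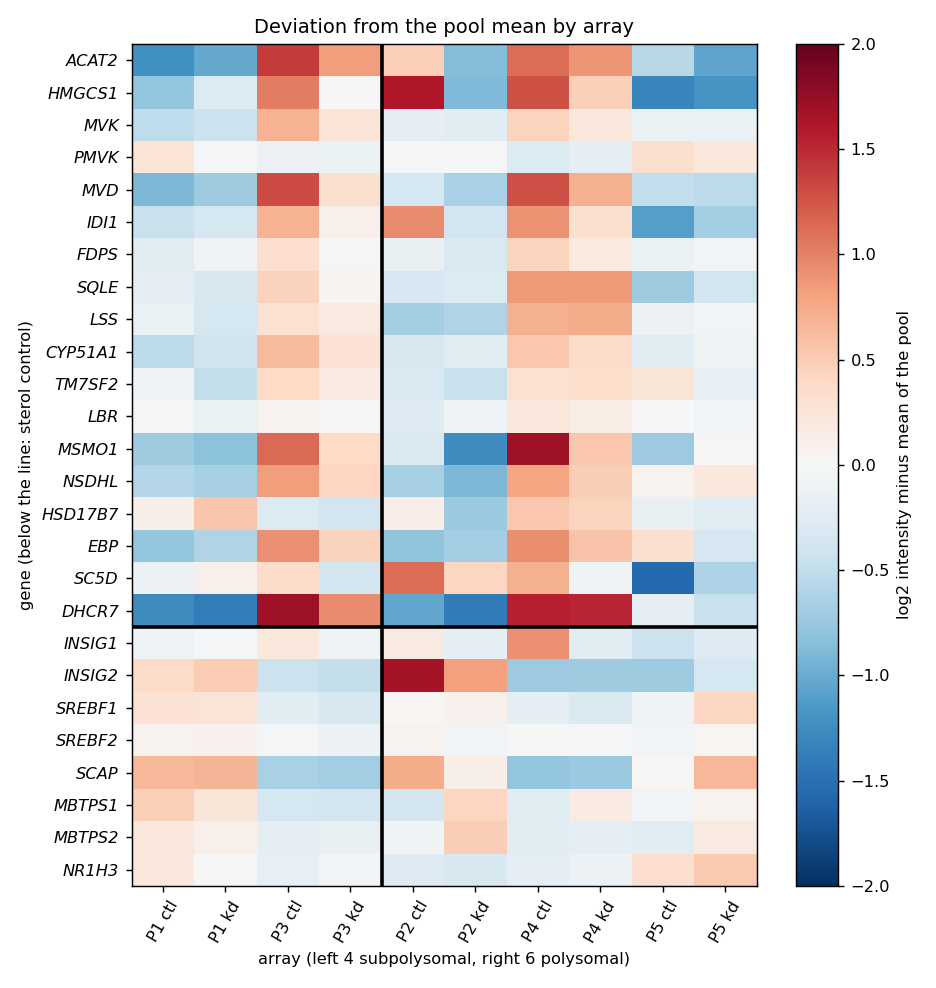
Deviation of each measured cholesterol synthesis gene (above the line) and sterol control gene (below it) from its mean over the RNA pool, in log2 units by colour, for the 10 arrays in columns (ctl, control; kd, knockdown). Red blocks over P3 and P4 and blue blocks over P1, P2 and P5 run through many synthesis genes under either hairpin, though ACAT2, HMGCS1, IDI1 and SC5D are red on control array P2, while PMVK and SCAP run the other way.

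Across arrays the 7 measured genes varied together to different degrees. Pearson correlations of their within-pool deviations over the 10 arrays, for 21 pairs of genes, had a median of 0.632 and ran from 0.13 to 0.981. The points share P numbers, since each array resembled its own-number partner most over all kept probes (r between 0.938 and 0.993). The deviations also hold the knockdown minus control differences on which the genes were chosen. The correlations, and the mean profile used below, are therefore not independent of that choice. The correlations are descriptions and carry no p. Pairs of other genes were not correlated for comparison. Against the mean profile of the 7 genes, 5 genes outside all lists were most alike. They were TMEM41B, an endoplasmic reticulum scramblase (r 0.981), RHPN2 (0.978), FSTL1, a secreted glycoprotein (0.957), NACAD (0.936) and JUN, an AP-1 transcription factor (0.933). Without the 2 arrays farthest from the median of the profile, control P3 and control P4, r was 0.951, 0.975, 0.916, 0.885 and 0.872. FSTL1 read between 7.55 and 8.06, near background, and NACAD ran from 7.52, also near it, to 8.86. Of the 13902 measured genes, 26 that are not members had an r over 0.9, and 1 of them belonged to a list, ACSS2, which makes acetyl-CoA from acetate (0.922). TMEM41B read 9.73 on control array P4 and 9.32 on its knockdown partner, the highest values of the 10 arrays for that gene.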

How the data were processed

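RNA was measured on 10 Illumina beadchips. The deposited values were intensity values on a linear scale, and how the authors normalized or background-corrected them is unstated; R 2.15 is named per the submitters' processing notes. A second table with 20 columns matched no sample label and was not used, so the planned neqc normalization was replaced by log2 of the deposited intensities, quantile normalized over 10 arrays.

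Background was modelled by mirroring each array's log2 values below their mode, with a 0.05 tail, and 26904 of 47323 probes (56.9%) above it on at least 2 arrays were kept. Gene names came from the platform annotation, updated by gene identifier to RefSeq (GRCh38.p14), with 1 symbol for 30113 probes, several for 8 and none for 17202. The kept probe of highest mean stands for a gene.

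limma 3.58.1 (R 4.3.3) fitted 4 group means over all arrays, and, for P numbers, 5 P numbers with a hairpin effect per pool (3 residual degrees of freedom). Adjusted p-values are Benjamini-Hochberg over all kept probes, two-sided, called below 0.05. Same-numbered arrays deviated together (correlations of 0.467 to 0.917), so the numbers were taken to pair the arrays, though the labels do not say what P stands for. The scripts were tested on simulated data. Alternatives were median centring, no further normalization, other dim-probe filters, a P-number block, fewer arrays, another variance prior and the mean of a gene's probes. Promoters were the RefSeq table's 35116 windows, of which the 250 bases before each start were searched.

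The members and lists were chosen with earlier results of these data known. The named genes are the members, genes fixed by name, listed genes called between pools, and the 5 most alike in profile; ACTB, NR1H3, ACSS2, MBTPS1, MBTPS2, the cell markers and the genes named only in captions fall outside this rule. The number of arrays limits precision, and arrays within a number share their source.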

Additional observations from a re-analysis of the deposited data

Results flagged for a closer look

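LSS, the lanosterol synthase, was lower on the knockdown array in both subpolysomal pairs (-0.22 in P1 and -0.12 in P3) and higher in all 3 polysomal pairs (0.09 in P2, 0.04 in P4 and 0.05 in P5). It stands here because every pair of one RNA pool moved one way and every pair of the other pool the opposite way. Many named genes of the sterol and lipid lists were screened with this rule, and how many would meet it by chance was not examined. The values are those of the brightest LSS probe. The other 2 probes, near background, did not repeat the pattern, with -0.14, 0.04, 0.07, -0.06 and -0.03 for P1 to P5 on one and -0.01, -0.15, 0.01, 0.04 and -0.04 on the other. The polysomal difference averaged 0.0605, and the difference between the pools was not tested.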

How the results depend on the processing

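Counts of calls depended on the fit. Between pools with hairpins averaged, limma called 309 probes, 51 with the P number as a random replicate block (block correlation 0.542) and 115 with a trended and robust prior. In control cells it called 32, against 17 with no filter on dim probes, 15 with the block, and 0 with only the arrays compared or with the trended prior. In knockdown cells it called 43, against 23 with median centring, 24 with the deposited values as given, and 0 with only the arrays compared or with the trended prior. Leaving out 1 array gave 110 to 287, 1 to 4 and 2 to 10 probes in these comparisons. The pool difference then ran from -0.33 to 0.58 for HMGCS1, -0.18 to 0.44 for IDI1 and -0.246 to 0.0693 for TM7SF2. GGPS1 kept its direction and stayed called in 3 of 10 such fits. The block changed no call of a member between pools, and none between hairpins.

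Between P4 and P5 limma called 420 probes, against 180 with median centring, 176 with the deposited values and 2095 with the trended prior, and 3 synthesis genes against 1, 1 and 10. Between P5 and P2 the trended prior called 3585 probes against 1793, and no filter 1 synthesis gene against 2. With 1 array left out, the counts of probes and of synthesis genes ran from 0 to 4377 and 0 to 10 for P3 over P1, 431 to 4916 and 2 to 8 for P4 over P2, 0 to 975 and 0 to 4 for P4 over P5, and 0 to 1703 and 0 to 1 for P5 over P2; fewer residual degrees of freedom are part of that construction.

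Signs turned after median centring and with the deposited values for HMGCS1 (-0.1638 and -0.1688) and IDI1 (-0.2815 and -0.2865) in P4 over P2, and for FDPS (-0.0007 and -0.0041) and HSD17B7 (-0.1178 and -0.1211) in P5 over P2; the cause was not tested. With 1 array left out the ranges crossed 0 in P4 over P2 for HMGCS1 (-0.55 to 1.59), IDI1 (-0.30 to 0.96) and INSIG1 (-0.15 to 0.88), in P3 over P1 for INSIG1 (-0.0493 to 0.292), and in P5 over P2 for INSIG1 (-0.80 to 0.12), FDPS (-0.01 to 0.27) and HSD17B7 (-0.28 to 0.49). The median hairpin difference of the members ran from -0.513 to -0.0695 in polysomal RNA, -0.55 to 0.05 in subpolysomal RNA and -0.35 to -0.10 over both when 1 array was left out. SQLE between P4 and P5 lost its call with median centring (adjusted p = 0.262) and in 7 of 10 fits without 1 array, and between P4 and P2 without knockdown array P4 (0.0567).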
